A study of Rattus norvegicus with 35 samples.

Results

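Genes for the proteins of the mitochondrial and of the cytosolic ribosome were followed in the liver of rats dosed with TBB, the flame retardant 2-ethylhexyl-2,3,4,5-tetrabromobenzoate. Mitochondrial members carry symbols of the form Mrpl or Mrps plus a number, and cytosolic members symbols of the form Rpl or Rps plus a number. Rps6k kinase genes, names ending in l for like and pseudogenes were left out. Of 14217 genes with a single-symbol probe set, 114 met the rule. They comprised 73 mitochondrial genes (46 Mrpl, named for the large subunit, and 27 Mrps, named for the small) and 41 cytosolic genes (28 Rpl and 13 Rps). Subunits below follow these names, although Mrps30 and Mrps18a are known as large-subunit proteins in mammals. A gene on several probe sets was read from the one with the highest mean over all arrays, so 142 single-symbol probe sets gave 114 values per array.

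Male Sprague Dawley rats from Harlan, 7 weeks old when the study began, were gavaged with TBB in corn oil once a day for 5 days. The groups were vehicle (corn oil alone, 5 arrays) and 0.05, 0.55, 5.50, 55 and 550 mg/kg (6 arrays each), 35 arrays in all. RNA came from the left liver lobe 1 day after the final dose. The labels do not say that each array is its own animal, so p-values reflect how far these arrays differ among themselves, and that scatter may be technical.

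The mitochondrial ribosome sits in the mitochondrial matrix and translates the few proteins that mitochondrial DNA encodes, all of them parts of the respiratory chain and ATP synthase. Its proteins are made from nuclear genes in the cytosol and imported, and many have no relative in bacteria or in the cytosolic ribosome. The cytosolic ribosome makes every other protein, and the mRNAs of its proteins in mammals begin with a run of pyrimidines, the terminal oligopyrimidine (TOP) tract, through which mTORC1 signalling controls their translation.

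The gene starts of members described below are shown because this tract is the feature by which the cytosolic genes are best known. Each line gives 60 bases of the sense strand, 40 before and 20 from the start that the RefSeq promoter table of the GRCr8 assembly uses, which need not be the outermost annotated start. Capitals mark the longest run of C or T that touches the 5 bases on either side of that start.
Mrps27, chr2:32474164-32474223, plus strand: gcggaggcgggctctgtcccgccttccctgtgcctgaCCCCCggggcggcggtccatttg
Mrpl41, chr3:28179736-28179795, minus strand: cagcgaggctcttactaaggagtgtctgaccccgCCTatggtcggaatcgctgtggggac
Mrps9, chr9:52605638-52605697, plus strand: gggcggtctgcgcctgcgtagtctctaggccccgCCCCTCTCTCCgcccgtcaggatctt
Mrpl39, chr11:37281525-37281584, minus strand: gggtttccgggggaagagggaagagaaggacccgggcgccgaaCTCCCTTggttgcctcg
Rps15, chr7:10068096-10068155, minus strand: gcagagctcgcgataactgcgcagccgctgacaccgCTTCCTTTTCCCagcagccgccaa
Rpl19, chr10:83519024-83519083, plus strand: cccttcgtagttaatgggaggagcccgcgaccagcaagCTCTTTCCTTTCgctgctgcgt
Rpl13a, chr1:104748894-104748953, minus strand: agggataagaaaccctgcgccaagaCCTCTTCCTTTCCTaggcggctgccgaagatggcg
Rpl5, chr14:1995206-1995265, minus strand: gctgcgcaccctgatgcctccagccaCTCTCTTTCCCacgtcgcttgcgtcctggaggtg
Rps23, chr2:23814477-23814536, plus strand: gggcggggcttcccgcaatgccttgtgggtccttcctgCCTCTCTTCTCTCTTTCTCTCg
Rps6, chr5:106420521-106420580, minus strand: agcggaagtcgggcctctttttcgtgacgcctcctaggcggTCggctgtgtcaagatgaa

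The promoter table held 59 of the 73 mitochondrial and 34 of the 41 cytosolic genes. A run of at least 8 pyrimidines lay at the start of 4 of the 59 mitochondrial genes (6.78%), against 8.27% of all 19005 protein-coding genes in the table. It lay at the start of 19 of the 34 cytosolic genes (55.9%). A run was counted if it touched the 5 bases on either side, so some ended before the start, as in Rpl13a and Rpl5. These are therefore not shares of mRNAs that begin with a run. The Rps23 run was the longest printed at 21 bases, those of Rps15 and Rpl19 had 12, and Rps6 had only 2 at the start the table uses. Mrps9 had 11, which made it 1 of the 2 mitochondrial genes with at least 10. Requiring 6 or 10 bases instead gave 16.9% or 3.39% of mitochondrial and 67.6% or 50% of cytosolic genes.

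Short motifs were also searched on both strands of the 300 bases around the start, each by its letters and allowing no mismatch. The motif CCGGAAG, which holds the core that ETS factors such as GABP bind, was found in 19 of 59 mitochondrial genes (32.2%) and in 8 of 34 cytosolic genes (23.5%), against 11.2% of protein-coding genes. The motif GCATGCGC, a form that NRF1 binds, was found in 5 mitochondrial genes (8.47%) and 1 cytosolic gene (2.94%), against 3.23% of protein-coding genes. The TATA box motif TATAAA was found in 13.6% of mitochondrial and 11.8% of cytosolic genes, against 13.1% of protein-coding genes. None of the 3 motifs contains another, and a match describes the window and not a bound site.

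**Figure D1:**
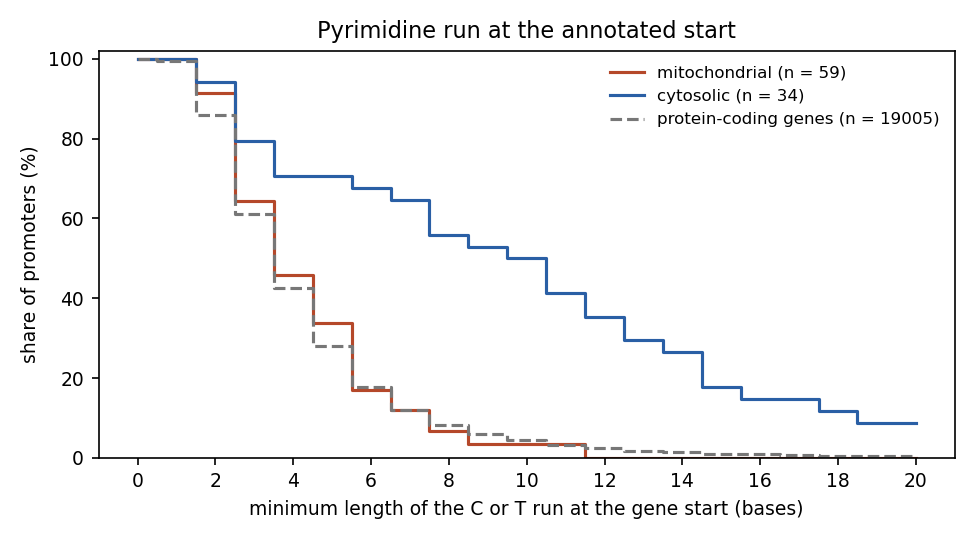
Share of gene starts (y axis, %) with a C or T run of at least the length on the x axis (bases), for mitochondrial members (n = 59), cytosolic members (n = 34) and all protein-coding genes of the promoter table (n = 19005). At 8 bases the cytosolic line stands at 55.9%, the mitochondrial line at 6.78% and the protein-coding line at 8.27%.

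Array values are log2 and normalised between arrays, so they rank a probe set between arrays but not genes against each other, and percentiles below only describe how bright a probe set is. The dimmest mitochondrial probe set, that of Mrpl38, was at the 72.46th percentile of all probe sets. Of the cytosolic probe sets, 3 were among the dimmest 40%. They were Rpl28 at the 13.27th, Rpl30 at the 28.6th and Rps13 at the 35.65th percentile. The normalisation shrinks differences of such dim probe sets. Among the remaining cytosolic genes Rpl39 was at the 56.6th percentile. Pairwise correlations between arrays ran from 0.988 to 0.997, and no pair was identical. Hepatocyte markers averaged 13.68 to 13.78 at 550 mg/kg and 13.78 to 13.82 in vehicle, and of 9 measured only Apoa1 passed the test (lower by 0.51). In liver tissue, fewer cells of a type and less RNA per cell cannot be told apart.

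At 550 mg/kg against vehicle, no member of either ribosome passed the test. The test was limma's moderated test over 31042 probe sets with Benjamini-Hochberg adjustment at 0.05, and it called 0.499% of all probe sets. Mitochondrial members leaned upward and cytosolic members downward, both by small amounts. The median log2 difference was 0.033 over the 73 mitochondrial genes and −0.036 over the 41 cytosolic genes, beside 0.0024 over all probe sets. A positive estimate was found for 45 mitochondrial and 7 cytosolic genes, where 51.0% of all probe sets were positive. At an unadjusted p under 0.05 stood 10 mitochondrial genes (8 higher, 2 lower) and 0 cytosolic genes. Of all probe sets 8.67% did, 4.45% higher and 4.22% lower. The cytosolic estimates ran from −0.12 to 0.074 with a median 95% half-width of 0.12, before any adjustment. Their intervals reached as far as −0.41 and 0.43. Passing the adjusted test takes more than leaving such an interval, so single genes could have differed by more than 0.12 without being called.

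**Figure D2:**
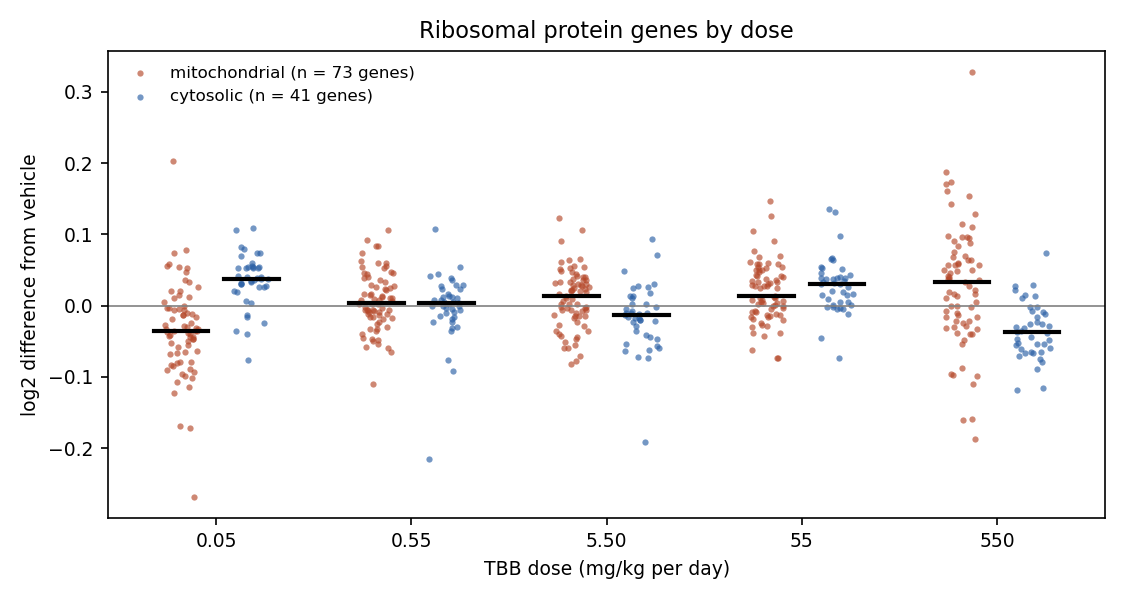
Log2 difference from vehicle (y axis) of each mitochondrial (n = 73, red) and cytosolic (n = 41, blue) ribosomal protein gene at each TBB dose (x axis, mg/kg per day), with black bars at the medians. At 550 mg/kg the medians lie at 0.033 and −0.036, and Mrps27 stands alone at 0.33.

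Both medians were smaller than the SD of the per-array means among vehicle arrays, 0.071 for the mitochondrial and 0.098 for the cytosolic genes. These SDs were the largest of the 6 groups and describe single arrays, so they are no test of a difference between groups. Leaving out vehicle replicate 2 changed the medians at 550 mg/kg to 0.0053 (mitochondrial) and −0.073 (cytosolic), and leaving out vehicle replicate 5 changed them to 0.049 and −0.0059. Without vehicle replicate 3 the mitochondrial median was 0.0073. The count of cytosolic genes with a positive estimate was 4 without vehicle replicate 2, 19 without vehicle replicate 5 and 12 without 550 mg/kg replicate 1. The members of a ribosome also move together from array to array, as described below, so their counts are not counts of independent genes.

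Mrps27, a small-subunit protein found only in mitochondrial ribosomes of animals and known to bind RNA, was the member with the largest difference. Its log2 values at 550 mg/kg ran from 7.79 to 8.05 with a median of 8.00, against 7.32 to 7.79 with a median of 7.54 at 55 mg/kg. In vehicle they were 7.77, 7.54, 7.55, 7.52 and 7.71. Every array at 550 mg/kg was above every array at 55 mg/kg and every vehicle array. Mrps27 rose at 550 relative to 55 mg/kg by 0.40 ± 0.082 (estimate ± SE, a fold of 1.32), with an adjusted p of 0.0091 in limma's test. Its estimate against vehicle was 0.33 ± 0.086 (1.26-fold, 95% interval 0.15 to 0.50), with an adjusted p of 0.079, which did not pass.

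Mrps27 was also the only member to pass the F test for a difference anywhere among the 6 groups (adjusted p = 0.0081), a test that called 0.741% of all probe sets. At an unadjusted p under 0.05 the F test held 10 mitochondrial and 0 cytosolic genes, against 8.32% of all probe sets. The Mrps27 means were 7.62 ± 0.11 in vehicle (SD, n = 5) and 7.45 ± 0.084, 7.57 ± 0.13, 7.65 ± 0.17, 7.55 ± 0.20 and 7.95 ± 0.12 at 0.05, 0.55, 5.50, 55 and 550 mg/kg (SD, n = 6 each). Up to 55 mg/kg the groups overlapped and no dose stood apart from vehicle. The gene's other probe sets, dimmer ones, gave 0.29 and 0.27 at 550 mg/kg against vehicle and 0.24 and 0.37 against 55 mg/kg, all positive and none called. The call of Mrps27 against 55 mg/kg was lost when only those 2 groups were fitted (adjusted p = 0.087).

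Mrpl41, a large-subunit protein particular to mitochondria, was the only member whose 550 mg/kg arrays all lay below vehicle. Its values at 550 mg/kg ran from 10.26 to 10.47 with a median of 10.37, and in vehicle they were 10.67, 10.49, 10.51, 10.51 and 10.65. At 55 mg/kg they ran from 10.44 to 10.64 with a median of 10.57, so the groups at 550 and 55 mg/kg overlapped. The estimate was −0.19 ± 0.048 against vehicle (adjusted p = 0.067, limma) and −0.18 ± 0.045 against 55 mg/kg (adjusted p = 0.0506), both just outside the threshold. With 1 probe set per gene in the fit, the adjusted p against vehicle was 0.028.

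Mrps9 and Mrps22, both of the small subunit, were the other members whose groups did not overlap at 550 mg/kg. Mrps9 ran from 9.11 to 9.30 (median 9.16) at 550 mg/kg, against 9.02, 8.95, 8.92, 9.07 and 9.03 in vehicle. Mrps22 ran from 8.45 to 8.67 (median 8.53) at 550 mg/kg, against 8.41, 8.24, 8.34, 8.44 and 8.44 in vehicle. All 550 mg/kg arrays of both genes lay above all vehicle arrays. Estimates were 0.17 ± 0.057 for Mrps9 (adjusted p = 0.23, limma) and 0.16 ± 0.057 for Mrps22 (adjusted p = 0.31). A second, bright probe set of Mrps9 gave 0.16. A second probe set of Mrps22, a dim one at the 14.72th percentile, gave −0.013. Over the alternative fits described below the Mrps22 estimate ran from 0.074 to 0.18. In all, 3 mitochondrial genes were wholly higher and 1 wholly lower, where 0.796% and 0.548% of all probe sets were. No cytosolic gene was separated in either direction.

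**Figure D3:**
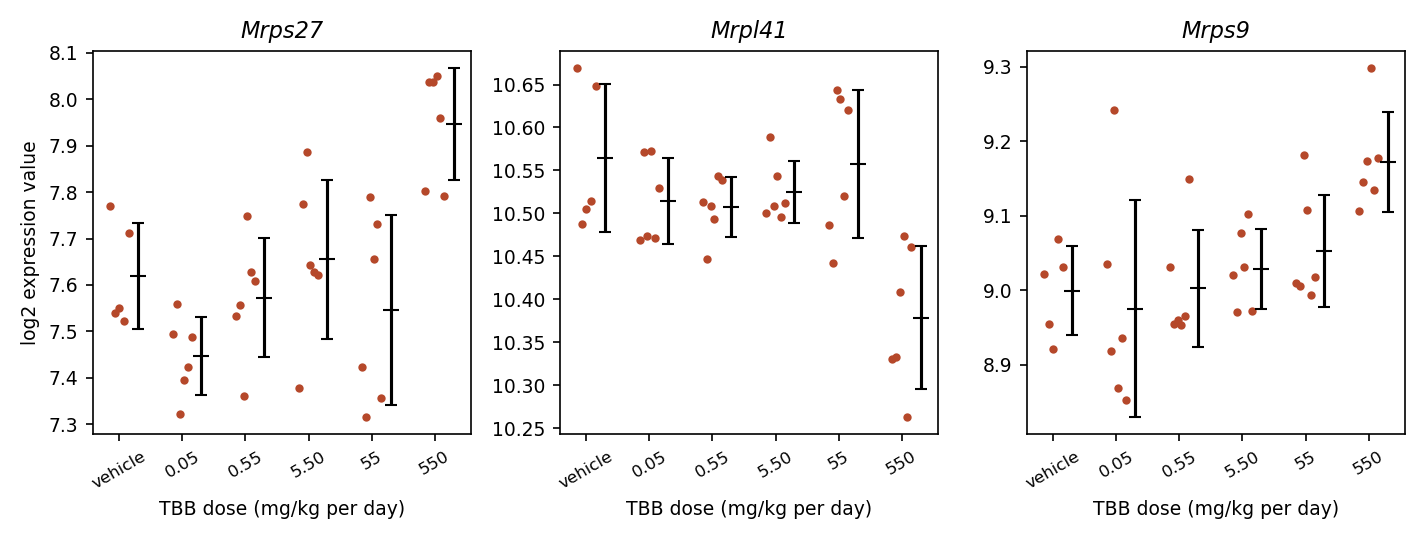
Log2 expression value (y axis) of Mrps27, Mrpl41 and Mrps9 in each of the 35 arrays by TBB dose (x axis, mg/kg per day), with mean ± SD beside each group (n = 5 for vehicle, n = 6 for each dose). At 550 mg/kg Mrps27 and Mrps9 lie above and Mrpl41 below every vehicle array, and the lower doses of all 3 genes overlap vehicle.

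The remaining large differences of mitochondrial members at 550 mg/kg came from both subunits. Mrpl16, a large-subunit protein with a bacterial relative, averaged 9.98 ± 0.082 at 550 mg/kg and 9.79 ± 0.045 in vehicle, an estimate of 0.19 ± 0.055 (adjusted p = 0.15, limma). Mrpl13 averaged 9.12 ± 0.044 at 550 mg/kg and 8.95 ± 0.13 in vehicle, an estimate of 0.17 ± 0.060 (adjusted p = 0.30). In both genes the lowest 550 mg/kg array was below the highest vehicle array. Mrpl12, which forms the stalk that recruits elongation factors and also binds the mitochondrial RNA polymerase, was lower by 0.16 ± 0.074 (adjusted p = 0.54). Mrpl47 was lower by the same amount with the widest spread of any mitochondrial member (pooled within-group SD 0.23), and Mrps6 and Mrps2 were lower by 0.11 and 0.099. None of these passed the test.

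By subunit name, 29 of 46 Mrpl and 16 of 27 Mrps genes had positive estimates at 550 mg/kg, with medians of 0.034 and 0.022. By origin, 26 of 44 genes with a bacterial relative and 19 of 28 particular to mitochondria were positive, with medians of 0.019 and 0.038. Of the cytosolic genes, 5 of 28 Rpl and 2 of 13 Rps genes were positive, with medians of −0.045 and −0.016. Both name classes of a ribosome leaned the same way, and no class held a called gene.

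Among cytosolic members the largest decreases at 550 mg/kg were those of Rpl13a, Rps15, Rpl6, Rpl5 and Rpl3. Rpl13a, a large-subunit protein, averaged 11.80 ± 0.089 at 550 mg/kg and 11.91 ± 0.085 in vehicle, an estimate of −0.12 ± 0.068 (adjusted p = 0.67, limma). Rps15, a small-subunit protein needed for export of the small-subunit precursor from the nucleus, averaged 11.85 ± 0.096 at 550 mg/kg and 11.97 ± 0.13 in vehicle, also −0.12 ± 0.072 (adjusted p = 0.71). Rpl6, Rpl5 and Rpl3 were lower by 0.089, 0.079 and 0.075. All of these groups overlapped vehicle. Rpl3 lies near the peptidyl transferase centre, and Rpl5 binds the 5S rRNA with Rpl11, whose estimate was near 0 (−0.0022 ± 0.061). Rps6, the small-subunit protein phosphorylated downstream of mTORC1, gave −0.052 ± 0.054, and Rps23 of the decoding centre gave −0.026 ± 0.051. The largest increase, 0.074 ± 0.097, was that of Rpl28, whose probe set is among the dimmest.

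Between the 2 highest doses nearly all cytosolic genes had lower estimates. At 550 against 55 mg/kg only 2 of 41 cytosolic genes had a positive estimate, with a median of −0.073, where 48.9% of all probe sets were positive with a median of −0.0026. The mitochondrial genes were positive in 42 of 73 with a median of 0.015. Mrps27 was the single call, in a comparison that called 0.686% of all probe sets, and no cytosolic gene was called. Mrps27 was also the only mitochondrial gene whose 550 mg/kg arrays all lay above those of 55 mg/kg, which was so for 0.825% of all probe sets. At an unadjusted p under 0.05 stood 9 mitochondrial genes (6 higher, 3 lower) and 3 cytosolic genes (all lower), against 9.43% of all probe sets. The cytosolic genes were Rpl5, Rps15 and Rpl39.

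Rpl5 ran from 12.55 to 12.68 with a median of 12.62 at 550 mg/kg, against 12.70 to 12.82 with a median of 12.76 at 55 mg/kg. The groups did not overlap, which was so for 0.329% of all probe sets in that direction, and Rpl5 was the only cytosolic member with such a gap. Its estimate was −0.14 ± 0.055 (adjusted p = 0.33, limma). In vehicle its values were 12.71, 12.51, 12.65, 12.70 and 12.91, a range that holds all arrays of both doses. Leaving out 1 array at a time gave cytosolic medians from −0.089 to −0.053. The number of positive genes ranged from 1 (without 55 mg/kg replicate 1 or 2) to 8 (without 550 mg/kg replicate 1). Mrps2 was the mitochondrial gene with the largest decrease, at −0.23 ± 0.080 (adjusted p = 0.27), and its other, dimmer probe sets gave −0.26 and −0.24.

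Lower doses gave no call in either ribosome. All 5 comparisons with vehicle share the same 5 vehicle arrays, so their values are set side by side and not as separate evidence. At 55 mg/kg limma called 0 members, with 0.00644% of all probe sets called. At an unadjusted p under 0.05 were 1 mitochondrial gene (Mrpl36, 0.15) and 1 cytosolic gene (Rpl39, 0.14), against 4.20%. At 55 mg/kg 49 of 73 mitochondrial genes (median 0.014) and 33 of 41 cytosolic genes (median 0.031) had a positive estimate, where 50.7% of all probe sets did. The cytosolic genes thus leaned upward at the dose that serves as the comparison for 550 mg/kg above. With single arrays left out the medians ran from 8.4e-05 to 0.035 (mitochondrial) and from −0.0074, without vehicle replicate 2, to 0.068 (cytosolic). At 5.50 mg/kg the medians were 0.013 (−0.0086 to 0.032 with single arrays left out) and −0.013 (−0.055 to 0.023). At 0.55 mg/kg they were 0.0030 (−0.023 to 0.029) and 0.0044 (−0.029 to 0.044). Apart from the mitochondrial median at 55 mg/kg, each of these changed sign with the array left out. At 5.50 and 0.55 mg/kg 0% of all probe sets passed, and 0 members had an unadjusted p under 0.05, where 4.95% and 3.86% of all probe sets did.

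At the lowest dose both leans were opposite to those at 550 mg/kg. At 0.05 mg/kg 18 of 73 mitochondrial genes had a positive estimate (median −0.036) and 35 of 41 cytosolic genes did (median 0.037), where 51.9% of all probe sets were positive. No member was called (0% of all probe sets were), and 3 mitochondrial and 0 cytosolic genes had an unadjusted p under 0.05, against 6.05%. The 3 genes were Mrps18c (−0.27 ± 0.12), Mrpl39 (−0.17 ± 0.064) and Mrps2 (0.20 ± 0.084), with adjusted p of 0.80 each in limma. Mrpl39 was also the gene next in line for the F test (adjusted p = 0.15). Only Mrps18c was separated from vehicle, in the lower direction, as were 0.235% of all probe sets. Without vehicle replicate 2 the cytosolic median was 0.0041 with 21 genes positive, and 11 mitochondrial genes were positive. Without vehicle replicate 5 the cytosolic median was 0.084, and 28 mitochondrial genes were positive with a median of −0.017.

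Over the whole dose series, a slope on dose rank (0 for vehicle to 5 for 550 mg/kg) called no member, with 0.171% of all probe sets called. Of the mitochondrial genes 58 of 73 had a positive slope, and of the cytosolic genes 8 of 41, against 50.9% of all probe sets. An unadjusted p under 0.05 was reached by 15 mitochondrial genes, 14 of them positive, where 4.61% of all probe sets were so in the positive direction. Among cytosolic genes only Rpl6 reached it, with a negative slope (−0.019 per rank). Mrps22 had the smallest p, with 0.036 ± 0.0095 per rank (adjusted p = 0.09995, limma), followed by Mrps9 with 0.033 ± 0.0096 (adjusted p = 0.14). Their group means climbed at each step from 0.05 to 550 mg/kg, for Mrps22 8.32, 8.37, 8.40, 8.44 and 8.53, while the vehicle mean was 8.37. Over the alternative fits the Mrps22 slope ran from 0.020 to 0.040 per rank, with limma adjusted p from 0.0515 to 0.464. The cytosolic count was 13 of 41 without vehicle replicate 5 or without 550 mg/kg replicate 1.

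Averaged per array, neither ribosome separated any dose from vehicle. The mean over the 73 mitochondrial genes was 9.29 ± 0.044 at 550 mg/kg and 9.26 ± 0.071 in vehicle (SD, n = 6 and 5). The mean over the 41 cytosolic genes was 11.39 ± 0.053 at 550 mg/kg and 11.43 ± 0.098 in vehicle. The difference between both means, which removes only what both share equally, was −2.10 ± 0.038 at 550 mg/kg and −2.16 ± 0.044 in vehicle. Its pooled within-group SD was 0.060, beside 0.054 for the mitochondrial and 0.071 for the cytosolic mean. By dose the difference was −2.23 ± 0.066, −2.15 ± 0.089, −2.14 ± 0.060 and −2.17 ± 0.046 at 0.05, 0.55, 5.50 and 55 mg/kg. At 550 mg/kg it ran from −2.16 to −2.05 and in vehicle from −2.23 to −2.12, so the groups overlapped. These are differences between arrays and do not say which mRNAs are more abundant.

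**Figure D4:**
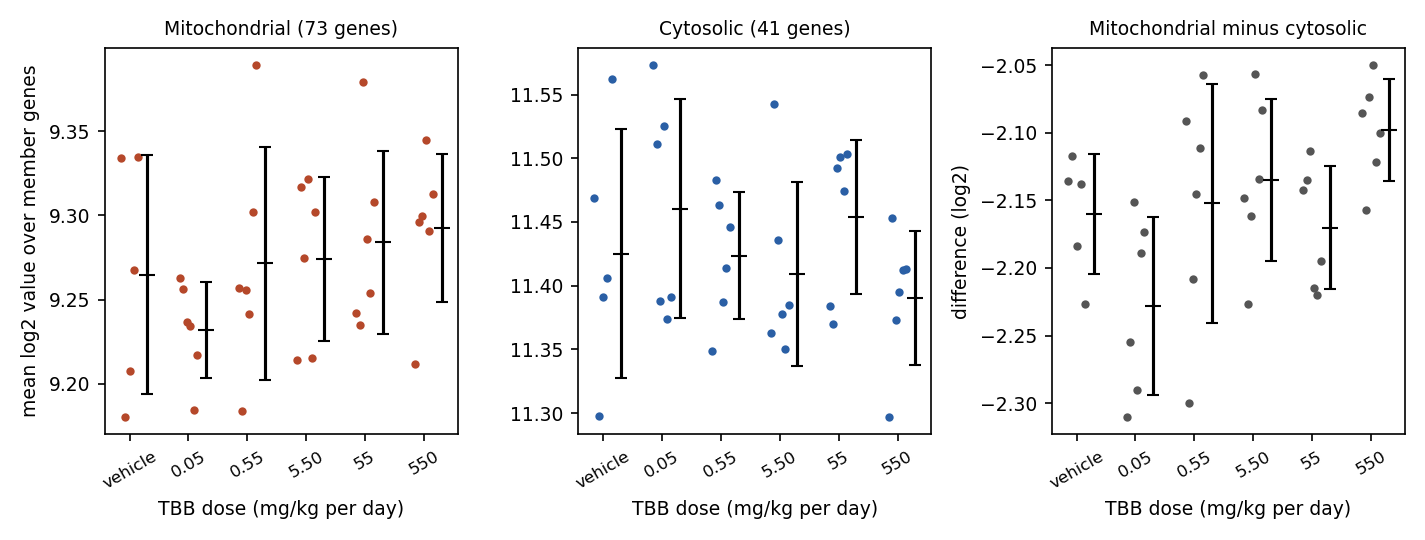
Mean log2 value over the 73 mitochondrial genes, over the 41 cytosolic genes, and their difference (y axes), in each array by TBB dose (x axis, mg/kg per day), with mean ± SD (n = 5 for vehicle, n = 6 for each dose). All dose groups overlap vehicle in all 3 panels, and the difference at 550 mg/kg averages −2.10 against −2.16 in vehicle.

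Genes of a ribosome moved together across the arrays even with group means removed. The mean correlation between pairs of cytosolic genes was 0.597 and between pairs of mitochondrial genes 0.337, over 35 arrays that share their processing. Between a mitochondrial and a cytosolic gene it was 0.260, and over pairs of all probe sets it was 0.0020. The normalisation makes array distributions alike, which by itself keeps this last value small, so it is no baseline for bright probe sets. Rpl27a, Rpl26 and Rpl35 followed the other cytosolic genes most closely (mean 0.739, 0.734 and 0.722), and Mrpl40 the other mitochondrial genes (0.487). Rps4y2 (−0.0085) and Rps13 (0.0083) did not follow their ribosome. The Rps13 probe set is dim, and the other dim cytosolic ones, of Rpl30 (0.22) and Rpl28 (0.26), had the next lowest means among cytosolic genes. Rps4y2 also had the widest spread of any member, with a pooled within-group SD of 0.37. Mrpl47 likewise had a mean of −0.040 with its own ribosome. Cytosolic genes with at least 8 pyrimidines at the start had a median of 0.671 (19 genes) and those with fewer 0.674 (15 genes).

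A direct pairing of relatives was possible for 14 of 25 proteins that both ribosomes inherit from a common ancestor. The mitochondrial partner had the higher estimate at 550 mg/kg against vehicle in 9 of 14 pairs. Of the mitochondrial partners 8 were positive (median 0.041), and of the cytosolic partners 0 were (median −0.042). Mrpl13 gave 0.17 and Rpl13a −0.12, Mrpl3 gave 0.075 and Rpl3 −0.075, and Mrpl4 gave 0.090 and Rpl4 −0.065. In Mrpl18 and Rpl5 both were lower, by 0.088 and 0.079. No difference within a pair was tested.

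A list of ribosome biogenesis and RNA polymerase I genes leaned further than the ribosomal proteins. Most of its members process rRNA or assemble ribosomal subunits in the nucleolus. Others are subunits of RNA polymerase I, its initiation factors (Rrn3, Ubtf, Taf1b, Taf1c and Taf1d) or the transcription factor Myc. At 550 mg/kg against vehicle 46 of 49 measured genes had a negative estimate with a median of −0.16, and none was called by limma. An unadjusted p under 0.05 was reached by 17 of them, against 4.22% of all probe sets in the lower direction. Bop1, a factor for maturation of the large-subunit rRNA, had the smallest p, averaging 7.02 ± 0.17 at 550 mg/kg and 7.29 ± 0.21 in vehicle, an estimate of −0.26 ± 0.087 (adjusted p = 0.23). Nop56 (−0.29 ± 0.11) and Fbl (−0.16 ± 0.073), core proteins of the particles that methylate rRNA, are named after their values were seen and did not pass either. Against 55 mg/kg the list's median was also −0.16 (3 of 49 positive), and with single arrays left out the median against vehicle ran from −0.18 to −0.12. At 0.05 mg/kg the lean was opposite, with a median of 0.14 (0.089 to 0.17 with single arrays left out) and 40 of 49 positive. There 11 of 49 had an unadjusted p under 0.05 in limma, against 6.05% of all probe sets, and none was called.

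Cytosolic translation factors with TOP mRNAs had 2 of 13 positive with a median of −0.044 at 550 mg/kg and no call, among them Eef2, the elongation factor of translocation (−0.13 ± 0.068, adjusted p = 0.61, limma). A list of mitochondrial translation and ribosome assembly genes had 24 of 38 positive with a median of 0.034 and no call. It also holds genes of mitochondrial transcription, among them Polrmt, Tfam, Tfb2m and the Mterf family. The smallest p was that of Rmnd1, which supports translation in mitochondria (0.19 ± 0.062, adjusted p = 0.23). A list of nuclear transcriptional regulators of mitochondrial genes, which also holds Tfam and the mitochondrial DNA maintenance genes Polg, Polg2, Twnk and Ssbp1, had 3 of 13 positive (median −0.063), and the coactivator Ppargc1a was lower by 0.25 ± 0.17 (adjusted p = 0.73). Of ribosomal proteins outside the naming rule, 0 of 3 cytosolic (median −0.076) and 3 of 5 mitochondrial genes (median 0.012) were positive at 550 mg/kg. The smallest p of each list were those of the acidic stalk protein Rplp0 and of Aurkaip1 of the mitochondrial small subunit. Rplp0 gave −0.11 ± 0.059 (adjusted p = 0.63, limma) and Aurkaip1 −0.20 ± 0.074 (adjusted p = 0.35). At an unadjusted p under 0.05 were 0 of 13 translation factors, 5 of 38 genes of the mitochondrial translation list and 0 of 13 of the regulator list, against 8.67% of all probe sets. Of the 5 genes, Gfm1, Rmnd1, Metap1d and the transcription factor Mterf1 had positive estimates, and Polrmt, the mitochondrial RNA polymerase, a negative one. These are named after their values were seen.

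Markers of other liver cells were measured beside these lists at 550 mg/kg. Red blood cell precursor markers (3 genes) averaged 7.46 to 7.87 at 550 mg/kg and 7.79 to 8.25 in vehicle, and Kupffer cell markers (7 genes) 8.00 to 8.74 at 550 mg/kg and 8.44 to 8.84 in vehicle. Of the red blood cell precursor markers Hbb gave −0.46 ± 0.15 and Alas2 −0.54 ± 0.18, with adjusted p of 0.23 each in limma, and Slc4a1 gave −0.0019 ± 0.082. All 7 Kupffer cell markers had negative estimates at 550 mg/kg (median −0.22) and also at 0.55 mg/kg (median −0.24), where the ribosomal medians were near 0. At 550 mg/kg 0 of 6 sinusoidal endothelial markers (median −0.071) and 1 of 7 stellate cell markers (median −0.15) were positive. So were 1 of 4 cholangiocyte (median −0.065), 3 of 7 lymphocyte (median −0.00092) and 1 of 3 neutrophil markers (median −0.057). No gene of these lists was called, and their part in the ribosomal values was not tested.

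**Figure D5:**
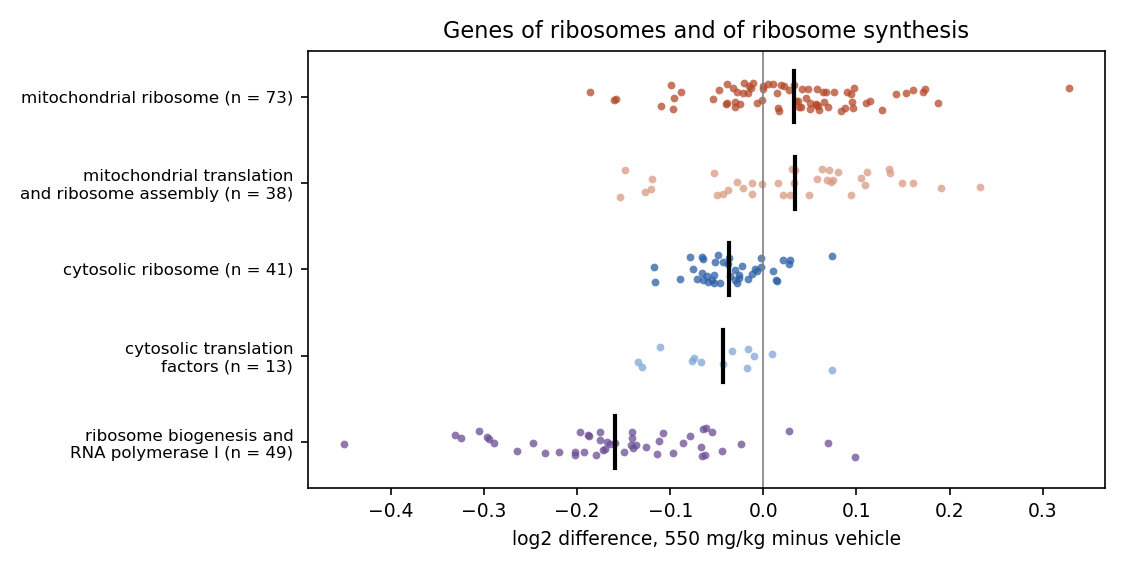
Log2 difference of 550 mg/kg from vehicle (x axis) for each gene of 5 groups (rows: mitochondrial ribosome, list of mitochondrial translation and assembly, cytosolic ribosome, cytosolic translation factors, ribosome biogenesis), with bars at the medians. The medians are 0.033, 0.034, −0.036, −0.044 and −0.16 from top to bottom, and no gene shown passed the test.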

How the data were processed

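Expression was measured on 35 single-colour Affymetrix arrays. What the authors deposited is 1 log2 value per probe set and array. Per the submitters' processing notes these come from RMA in affy. Versions are not given in the sources used for this text. RMA makes array distributions alike, so a shift shared by most genes cannot be seen, and it shrinks differences of dim probe sets. After 57 control probe sets were left out, 31042 went into linear models of limma 3.58.1 under R 4.3.3 (lmFit, contrasts.fit and eBayes, two-sided, 1 mean per group), with Benjamini-Hochberg adjustment over all of them and a threshold of 0.05. The comparisons were each dose with vehicle, 550 with 55 mg/kg, a moderated F test over the doses and a slope on dose rank. The design text names another R package for linear models, which was not used. The script was tested on simulated data. The number of arrays limits precision.

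Single gene symbols came from the platform annotation, which listed 20826 probe sets with one, 436 with several and 9780 with none. Of the 114 members 112 matched the gene table of the GRCr8 assembly by Entrez identifier. Rpl8, Rps2 and Rps19 had no single-symbol probe set, and 35 probe sets listing several symbols with an Rpl or Rps name were not used. Members, lists and the naming rule were chosen with earlier results of these data known. Named were called members, the 5 largest differences of each sign per ribosome at 550 mg/kg (2 at other doses), the 3 smallest p of slope and F test, the 3 widest and narrowest spreads, some universal proteins, and per list up to 4 called members or the smallest p.

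The labels do not say whether replicate numbers pair the arrays, and correlations of deviations from group means gave no sign of it. Over 85 pairs with the same number in different groups they ran from −0.31 to 0.27 (median −0.0092), and 17 exceeded 0.1. Over 425 pairs with other numbers they ran from −0.37 to 0.36 (median −0.00097), and 95 exceeded 0.1. Such values cannot exclude a pairing. The fits were repeated without the 40% dimmest probe sets, with array medians removed, with cyclic loess, with trended robust eBayes, with only the compared groups, with weights for arrays, with a replicate block, and with single arrays left out. Probe sets of a gene were also averaged, limited to 1 per gene in the fit, or dropped where their IDs mark possible cross-hybridisation, and ribosomal proteins outside the naming rule were added. Tables and figures used version 1.17.8 of data.table, Python 3.11.15, pandas 2.3.3 and matplotlib 3.10.9.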

Additional observations from a re-analysis of the deposited data

Results flagged for a closer look

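Single arrays stood apart from the others of their group in 10 of 288 sets of values, the 6 groups for each of 45 named genes and of the 3 per-array means, where chance would give about 14.4 (1 in 20). Each is a log2 value with a gap to its nearest neighbour that is large against the group's range. High values were those of Mrpl3 at 55 mg/kg (replicate 3, 9.558, next 9.438), Mrps18c at 5.50 mg/kg (replicate 4, 8.652, next 8.432) and Rpl19 at 5.50 mg/kg (replicate 2, 12.89, next 12.75). At 55 mg/kg replicate 6 was high in both Rps15 (12.2, next 12.02) and Rps28 (12.01, next 11.86). Low values were those of Mrpl42 at 0.55 mg/kg (replicate 2, 9.226, next 9.375), Mrpl45 at 0.05 mg/kg (replicate 5, 8.05, next 8.117) and Rpl39 at 5.50 mg/kg (replicate 6, 5.499, next 5.598). Rps29 was low in vehicle (replicate 2, 13.12, next 13.23) and high at 0.55 mg/kg (replicate 6, 13.32, next 13.2). Vehicle replicate 2 is also the array whose removal moved the cytosolic median most toward lower values in each of the 5 comparisons with vehicle.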

How the results depend on the processing

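Called counts of cytosolic members were 0 in every comparison under every alternative run. No median of either ribosome moved by more than the pooled within-group SD of the per-array means, 0.054 (mitochondrial) and 0.071 (cytosolic). For the slope this SD was divided by 5, the highest dose rank. The SD is larger than the medians at 550 mg/kg against vehicle (0.033 and −0.036). Staying within it therefore does not show that a lean is stable, and several medians changed sign. The mitochondrial count at 550 mg/kg against vehicle was 0 as reported. It was 1 without the 40% dimmest probe sets, with trend and robust settings and with a gene's probe sets averaged. The gene called there was Mrpl41, which was lower. With 1 probe set per gene the count was 2 (Mrps27 and Mrpl41). At 550 against 55 mg/kg the count of 1 became 2 without the dimmest probe sets, with cyclic loess, with trend and robust settings, with probe sets averaged and with 1 probe set per gene, 0 when only those groups were fitted, and 1 to 2 with single arrays left out. The F test count was 2 with array weights (Mrpl39 was added, adjusted p = 0.0493). Mrps27 was called in 20 of 21 alternatives at 550 against 55 mg/kg and in 43 of 43 for the F test, but in 1 of 20 against vehicle. Mrpl41 was called as lower in 8 of 21 alternatives at 550 against 55 mg/kg and in 4 of 20 against vehicle. For the F test it was called in 0 of 43.

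With the replicate number as a block the medians at 550 mg/kg against vehicle were 0.027 (mitochondrial) and −0.042 (cytosolic), and no count of called members changed. Since the numbers are not known to pair the arrays this block is only a description. Estimates near 0 changed sign: Rpl11 at 550 mg/kg was 0.000529 with array weights and Rps13 0.01287 with the block. With single arrays left out the estimates at 550 mg/kg ran from −0.054 to 0.083 for Rpl41, −0.016 to 0.073 for Rpl22, −0.016 to 0.074 for Rpl35a, −0.011 to 0.033 for Rpl39, −0.024 to 0.023 for Rps29, −0.076 to 0.047 for Rps13, −0.092 to 0.13 for Rps4y2, −0.071 to 0.013 for Rps23 and −0.036 to 0.059 for Rpl11. Those of Rps4y2 ran from −0.18 to 0.044 at 55 mg/kg and from −0.20 to 0.041 at 0.05 mg/kg. The causes of these changes were not tested. Minimum run lengths of 6 and 10 pyrimidines, and the counts of positive estimates, were added after seeing the data.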
